A study of Mus musculus with 4 samples.

Results

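The loci of 60 genes of the BMP, TGF-beta and Wnt pathways were examined for acetylation of histone H3 at lysine 14 (H3K14ac), out of 21631 protein-coding genes on 20 chromosomes. The genes were chosen by name, as ligands, receptors, antagonists and effectors that steer the fate of mesenchymal cells. The rule uses no measured value, but the list was drawn up with earlier results of these data known. The locus of a gene was its RefSeq extent with 10 kb added on either side, and a region, which is 1 entry of a deposited peak list, was counted where at least 1 bp of it lay in the locus. All 60 genes were found in the RefSeq table, and none of their loci overlapped another member's locus.

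The ChIP-seq libraries came from C3H10T1/2, a mouse mesenchymal stem cell line of C3H embryo origin. Cells labelled non-target control (titled WT) were compared with cells labelled Knockdown Nap1l2, which carried an shRNA against the histone chaperone gene Nap1l2 delivered by lentivirus. The treatment text names only the Nap1l2 shRNA virus, the time after infection is not given in the labels, and the study used 1 established cell line. Each group had 1 ChIP library and 1 input library, so the spread among replicates is unknown and no test was made of any difference given here. All intervals are exact 95% intervals that cover counting error only. Those for numbers and ratios of regions take regions as independent, and are too narrow where regions cluster within a locus.

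The lists were 10395 (control) and 18438 (knockdown) regions long. From the deposited values, mean ChIP pileups of 2.50 and 2.26 tags were recovered for control and knockdown, and the weakest listed summits had 9 and 8 tags, respectively. A tag is a sequenced ChIP read over the summit of a region, handled as single-end although made from pairs, so tags need not be separate fragments. The −log10 p given for regions is that of the peak caller's Poisson comparison with the local input. The −log10 q is that after its correction over the genome. The local input background is given in tags of the input depth, to which the caller scaled the ChIP. The library number of the control ChIP belongs to another number series than those of the other libraries, so that a library batch and the group cannot be told apart. As the lists measure no RNA, the identity of the line was not checked against marker genes.

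BMPs and TGF-betas bind pairs of type I and type II serine/threonine kinase receptors, which phosphorylate SMAD proteins that then enter the nucleus. BMP signals drive mesenchymal progenitors toward bone and cartilage. Wnt ligands bind Frizzled receptors and the co-receptors LRP5 and LRP6, which stabilizes beta-catenin for transcription with TCF and LEF factors, and this branch favours bone over fat. H3K14ac is a mark usually found at active promoters and enhancers.

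To determine how often these loci carried H3K14ac regions, members with at least 1 region were counted. In the control, 17 of the 60 members had a region (28.3%, interval 17.5 to 41.4%), compared with 17.5% of all protein-coding genes. In the knockdown, 22 members had a region (36.7%, interval 24.6 to 50.1%), compared with 25.4% of all genes. The members are long genes, with a median of 44.5 kb against 17.3 kb for all genes, and a longer locus has more room for regions. When the shares of all genes in 4 length classes were weighted by the number of members in each class, they came to 24.9% (control) and 35.3% (knockdown), and both values lay within the intervals of the members. Per length of locus, the members had 4.29 regions per Mb in the control (interval 2.69 to 6.5), against 4.46 over all protein-coding loci. In the knockdown, they had 7.80 regions per Mb (interval 5.57 to 10.6), against 7.24. Neither the share of loci with a region nor their density thus differed from other genes beyond counting error in these libraries.

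**Figure D1:**
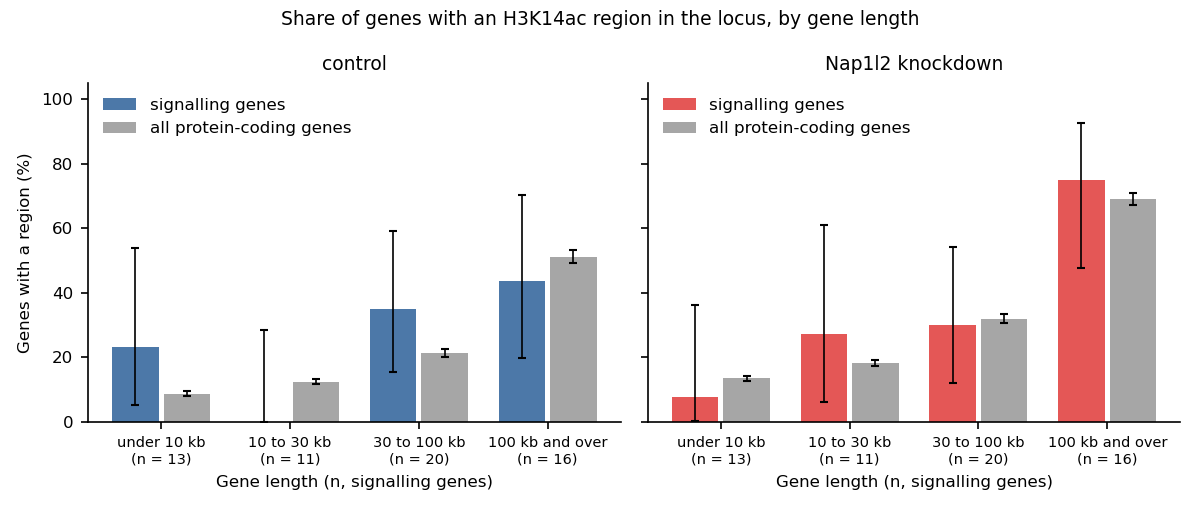
Share of genes with at least 1 H3K14ac region in the locus (%, vertical axis) by gene length class (horizontal axis, with the number of signalling genes), for the control (left) and the Nap1l2 knockdown (right). Coloured bars are the 60 signalling genes, grey bars are all 21631 protein-coding genes, and error bars are exact 95% intervals; the share rises with length in all genes, from 8.73 to 51.2% in the control and from 13.4 to 69.0% in the knockdown.

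By length class, 3 of 13 members under 10 kb had a region in the control and 1 in the knockdown. Of the 11 members of 10 to 30 kb, 0 had a region in the control and 3 in the knockdown. Of the 20 members of 30 to 100 kb, 7 and 6 had a region, and of the 16 members of 100 kb and over, 7 and 12. All grey values lay within the interval of the corresponding members.

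Both lists had a region at 11 members (18.3%), compared with 9.59% of all genes, or 16.4% after weighting by length class. A region was found in the control list alone at 6 members (10.0%, against 7.95% of all genes). In the knockdown list alone, 11 members had one (18.3%, against 15.8%). The other 32 members had none (53.3%, against 66.7%, or 56.2% after weighting by length class). The knockdown list had more regions than the control list at 18 of the 60 members, against 19.8% of all genes and 26.7% after weighting by length class. The control list had more at 8 members (13.3%, against 9.81% and 11.8%). The members held 22 regions in the control and 40 in the knockdown, a ratio of 1.82 (interval 1.05 to 3.21), compared with 1.62 over all protein-coding loci.

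The size of this excess varied with the entries that were counted. When the knockdown list was limited to its 10395 strongest entries, so that both lists were equally long, 14 members had a region in the knockdown against 17 in the control, with 21 and 22 regions. Over all genes, the shares in this setting were 17.2% (knockdown) and 17.5% (control), and so were nearly even as well. Among summits of 12 tags and more, 15 members had a region in each list, with 16 control and 22 knockdown regions, against 14% and 17.4% of all genes. With a −log10 p of at least 4, there were 8 members with 9 regions in the control and 10 members with 14 regions in the knockdown, against 6.96% and 10.9% of all genes. The whole lists kept 7678 (control) and 10819 (knockdown) entries at the limit of 12 tags, and 3123 and 5763 at that of −log10 p. The latter limit was not alike in tags. At the genome-wide input background, 13 tags gave a −log10 p of 3.76 in the control and 4.25 in the knockdown. The knockdown list thus kept more regions at both limits, at the members as in the whole list. With lists of equal length it did not, and the cause of the excess was not tested.

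**Figure D2:**
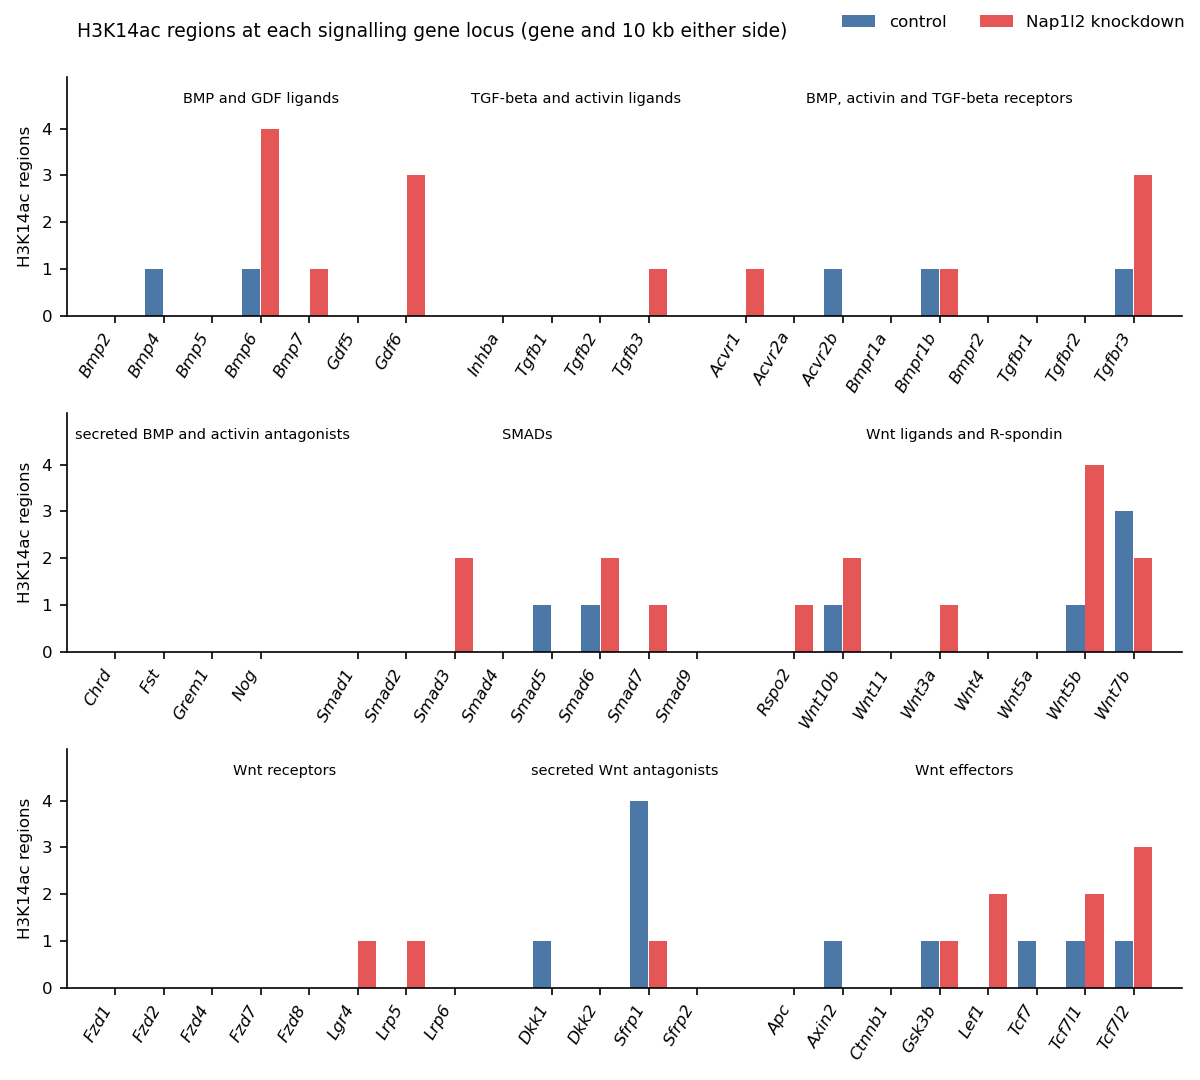
Number of H3K14ac regions (vertical axis) in the locus of each of the 60 signalling genes, grouped by role, in the control (blue) and the Nap1l2 knockdown (red), 1 library each. The highest counts are 4, at Sfrp1 in the control and at Bmp6 and Wnt5b in the knockdown, and genes with no bar had 0 regions.

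Because H3K14ac is often found at promoters, the distance from the regions to annotated transcription starts was measured next. The RefSeq window table (GRCm38.p6) listed a start for 40 of the 60 members. None of these 40 had a region within 2 kb of a listed start in either list (interval up to 8.81%). Over 17274 protein-coding genes with a listed start, 1.68% had one in the control and 2.62% in the knockdown. The distance from a member's start to the nearest region had medians of 98.6 kb (control) and 62.7 kb (knockdown), compared with 115 and 65.2 kb over all genes. Within 10 kb of a listed start, 4 of the 40 members had a region in the control, namely Wnt5b, Tcf7, Wnt10b and Dkk1, against 6.88% of all genes. In the knockdown 4 had one, namely Smad6, Lgr4, Wnt5b and Wnt10b, against 11.3%. The count of 0 thus lies near the small share of all genes and sets these genes apart from no others. The 20 members without a listed start were not measured, among them Gdf6, which had a knockdown region within 2 kb of a gene end that may be its start, as the table gives no strand for it.

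The shortest distance was 2.25 kb, at Smad6, in the knockdown and 4.27 kb, at Wnt5b, in the control. The same start of Wnt5b lay 5.67 kb from a knockdown region. Tcf7 followed at 4.40 kb in the control, Lgr4 at 5.40 kb in the knockdown, and Wnt10b at 5.90 kb (control) and 5.80 kb (knockdown). The start windows of Smad6 and Wnt5b are shown because they lay nearest to a region of each list, and that of Wnt10b because its regions were the only pair that overlapped. Each runs 5′ to 3′ from 250 bases before the start to 10 bases from the start onward, on the minus strand of GRCm38.p6, at chr9:64022050-64022309 for Smad6, chr6:119449377-119449636 for Wnt5b and chr15:98778141-98778400 for Wnt10b. Capitals mark matches on either strand to the SMAD palindrome GTCTAGAC and to CAAAG, the core bound by TCF and LEF factors.

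Smad6: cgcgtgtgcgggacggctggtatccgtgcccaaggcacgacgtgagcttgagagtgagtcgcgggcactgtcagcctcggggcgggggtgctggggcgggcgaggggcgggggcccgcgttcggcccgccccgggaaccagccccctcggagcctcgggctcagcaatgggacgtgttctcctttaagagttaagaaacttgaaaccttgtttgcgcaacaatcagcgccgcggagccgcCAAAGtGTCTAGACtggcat

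Wnt5b: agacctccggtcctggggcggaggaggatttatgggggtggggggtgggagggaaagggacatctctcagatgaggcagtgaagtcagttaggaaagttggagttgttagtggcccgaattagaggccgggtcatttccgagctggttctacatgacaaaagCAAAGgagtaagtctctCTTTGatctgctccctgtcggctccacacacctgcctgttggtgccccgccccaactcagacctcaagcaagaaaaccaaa

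Wnt10b: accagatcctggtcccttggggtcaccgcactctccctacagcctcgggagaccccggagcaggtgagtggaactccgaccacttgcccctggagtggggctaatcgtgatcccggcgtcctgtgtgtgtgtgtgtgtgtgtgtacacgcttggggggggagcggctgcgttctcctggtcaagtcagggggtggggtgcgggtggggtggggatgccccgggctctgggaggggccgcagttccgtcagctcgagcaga

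The Smad6 window held 1 SMAD palindrome, beginning 4 bases before the start, and 1 CAAAG match, and these do not overlap. The palindrome occurred in 1 of 54 member windows (1.85%) and in 0.20% of the 21045 windows of all genes. CAAAG occurred in 53.7% of the member windows and in 47.7% of all windows, with 2 matches in the Wnt5b window and 0 in the Wnt10b window. The windows were CpG-rich, with a median of 22 CpG dinucleotides in the members against 10 over all genes, and 27, 7 and 15 in Smad6, Wnt5b and Wnt10b. These matches describe the sequence only.

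Among the 7 BMP and GDF ligand genes, 2 had a region in the control and 3 in the knockdown, with 2 and 8 regions in all. The shares of all genes, weighted to the lengths of these 7, were 23.7% and 33.3%. Bmp6, a BMP made in bone and by the liver in iron control, had 1 control region and 4 knockdown regions, all inside its extent of 155 kb on chromosome 13. The control region (38447339 to 38447540) reached 15 tags, with a fold enrichment of 3.56 over input and a −log10 p of 4.68. The knockdown regions had 11, 13, 13 and 11 tags, and 3 of them lay within 2.75 kb of each other (38458714 to 38461458). None of the 4 overlapped the control region, from which the closest was 11.2 kb away, and 2 of them also lay in the lncRNA gene 4930579J19Rik.

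Gdf6, a ligand that patterns joints and the skull, had 0 control regions and 3 knockdown regions on chromosome 4. One lay inside the gene, 1.0 kb from an end (9845382 to 9845546, 11 tags), and the others lay 3.78 and 7.96 kb outside it (9866123 to 9866331, 15 tags, and 9870301 to 9870465, 10 tags). The strongest had a −log10 p of 5.11. The nearest control region lay 14 kb from the gene.

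Bmp7, a ligand needed for kidney and eye development, had 1 region in the knockdown (14 tags, −log10 p of 2.96) and 0 in the control. Bmp4, which induces ventral mesoderm and bone, had 1 region in the control, 4.81 kb downstream of the gene on chromosome 14 (46378548 to 46378712, 13 tags, −log10 p of 2.96), and 0 in the knockdown. Bmp2, Bmp5 and Gdf5 had 0 regions in either list. The counts at the ligands were thus unequal from gene to gene, and the ratio of knockdown to control regions over all 7 had an interval of 0.798 to 38.7.

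Of the 4 TGF-beta and activin ligand genes, Tgfb3, which acts in palate closure, had 1 knockdown region inside the gene on chromosome 12 (12 tags, −log10 p of 3.44). Tgfb1, Tgfb2 and Inhba, which encodes the activin A subunit, had 0 regions in either list. The length-weighted shares of all genes were 14.7% and 21.6% for these ligands. For Tgfb2, regions of both lists lay just outside the locus, 18.2 (control) and 18.3 kb (knockdown) from the gene.

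Of the 9 receptor genes, 3 had a region in each list, with 3 control and 5 knockdown regions over 1.3 Mb of locus. The densities of 2.31 control regions per Mb (interval 0.476 to 6.74) and 3.84 knockdown regions per Mb (interval 1.25 to 8.97) lay below the 4.46 and 7.24 of all protein-coding loci, which both intervals hold. The length-weighted shares of all genes were 34.6% and 48.4%. Tgfbr3, the co-receptor betaglycan, had 1 control region (107223488 to 107223790 on chromosome 5, 14 tags, −log10 p of 4.54) and 3 knockdown regions with 16, 11 and 10 tags. The knockdown region with 16 tags had a local input background of 3 tags, above the genome-wide 1.27 tags of that library, and its −log10 p was 2.96. Bmpr1b, a type I BMP receptor that acts in cartilage, is the longest member at 332 kb and had 1 region in each list, 98.2 kb apart on chromosome 3 (142066845 to 142067009 with 12 tags in the control, 141968485 to 141968694 with 10 tags in the knockdown).

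Acvr2b, an activin type II receptor, had 1 control region (119424934 to 119425098 on chromosome 9, 14 tags, −log10 p of 4.54) and 0 in the knockdown. Acvr1, the type I receptor mutated in fibrodysplasia ossificans progressiva, had 1 knockdown region of 10 tags (−log10 p of 2.69) and 0 in the control. Bmpr1a, Bmpr2, Acvr2a, Tgfbr1 and Tgfbr2 had 0 regions in either list, although their extents were between 61.7 and 114 kb.

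The 4 genes of secreted BMP and activin antagonists, Nog, Chrd, Grem1 and Fst, had 0 regions in either list. The length-weighted shares of all genes were 9.66% and 14.6%. Their loci add up to only 0.110 Mb, for which 0 regions allow up to 33.7 per Mb, so a lower density was not detectable there. Regions of both lists lay near Nog, 16.5 kb from the gene.

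Among the 8 SMAD genes, 2 had a region in the control and 3 in the knockdown, with 2 and 5 regions, where the length-weighted shares of all genes were 23.9% and 34.9%. Smad6, an inhibitory SMAD that BMP signals induce, had 1 control region of 11 tags (64002411 to 64002575 on chromosome 9, −log10 p of 3.02). It had 2 knockdown regions, of 11 and 16 tags, and the latter (64019633 to 64019811) was the one near the start, with a fold enrichment of 4.41 and a −log10 p of 6.01. This value was the highest of all 62 member regions, shared with a knockdown region at Wnt5b, and the −log10 q of both was 0.981. Smad3, which carries TGF-beta signals, had 0 control regions and 2 knockdown regions of 10 and 11 tags. Smad7, the other inhibitory SMAD, had 1 knockdown region of 14 tags inside the gene (−log10 p of 4.25) and 0 in the control. Smad5, which carries BMP signals, had 1 control region of 13 tags 7.03 kb downstream and 0 in the knockdown. Smad1, Smad2, Smad4 and Smad9 had 0 regions in either list.

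The Wnt ligand and R-spondin genes were the role with the most regions in both lists together. Of 8 genes, 3 had a region in the control and 5 in the knockdown, with 5 and 10 regions, which was 8.56 per Mb (interval 2.78 to 19.98) and 17.1 per Mb (interval 8.21 to 31.5). The knockdown interval lay above the 7.24 of all protein-coding loci and the control interval held their 4.46, and the length-weighted shares of all genes with a region were 23.9% and 33.7%. The knockdown interval takes regions as independent, although Wnt5b held 4 of the 10 regions and Wnt7b and Wnt10b 2 each. This role is 1 of 9 compared in this way, without a test. Of its genes, Wnt7b, Wnt10b and Rspo2 lie on chromosome 15, the densest in both lists. They held 4 of the 5 control and 5 of the 10 knockdown regions, against 3.74 and 4.33 at the density of that chromosome. Wnt5b, a non-canonical ligand of cartilage and fat development, had 1 control region and 4 knockdown regions inside its extent of 112 kb on chromosome 6. The control region (119453655 to 119454055) had 14 tags at a local background of 2.00 tags. The knockdown regions had 16, 14, 13 and 13 tags, all at the genome-wide background of 1.27 tags, and the first (119441585 to 119441859) had the −log10 p of 6.01. A gap of 999 bp separated the control region from the second knockdown region (119455055 to 119455219), and the fourth also lay in the lncRNA gene Gm30690.

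Wnt10b, a ligand that promotes bone and restrains fat, was the only member with regions that overlapped between the lists, as 1 of 60 (1.67%, against 0.569% of all genes). On chromosome 15, the control region (98771956 to 98772248, 12 tags, −log10 p of 3.76) and the knockdown region (98772191 to 98772355, 13 tags, −log10 p of 4.07) overlapped by 58 bp inside the gene. They lay 1.24 and 1.48 kb from its 3′ end. A second knockdown region of 10 tags lay 1.68 kb beyond that end. The control region was at the genome-wide background, and the overlapping knockdown region at 1.35 tags, slightly above it.

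Wnt7b, a ligand of bone and lung development, had 3 control regions of 15, 10 and 15 tags and 2 knockdown regions of 19 and 13 tags inside the gene on chromosome 15. The region of 19 tags (85544546 to 85544807) had the highest pileup of all member regions and a −log10 p of 5.26. The closest regions of the lists were 2.82 kb apart. The local input background was above the genome-wide level at all 5 regions, at 1.91 to 2.28 tags, and its part in these counts was not tested. Chromosome 15 was also the densest in both lists, with 14.1 and 16.4 regions per Mb for control and knockdown, and its 3 members held 4 control and 5 knockdown regions against 3.74 and 4.33 at that density. Wnt3a had 1 knockdown region of 12 tags and Rspo2, whose product enhances Wnt signals, 1 of 10 tags, both with 0 in the control. Wnt4, Wnt5a and Wnt11 had 0 regions in either list.

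The 8 Wnt receptor genes had 0 regions in the control and 2 in the knockdown, at 2 genes, where the length-weighted shares of all genes were 20.9% and 29.6%. These were at Lgr4, an R-spondin receptor (109923049 to 109923213 on chromosome 2, 13 tags, −log10 p of 4.25, 5.40 kb from the start), and at the co-receptor gene Lrp5 (10 tags, −log10 p of 2.16). The 5 Frizzled genes, which are between 3.35 and 5.75 kb long, had 0 regions in either list, and so had Lrp6 with 120 kb.

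At the genes of secreted Wnt antagonists, the order of the lists was the opposite, with 5 control regions and 1 knockdown region, although the interval of this ratio ran from 0.00423 to 1.79. This was 22.2 control regions per Mb (interval 7.2 to 51.8, against 4.46 over all loci). Knockdown regions came to 4.44 per Mb (interval 0.112 to 24.7, against 7.24). The control interval takes regions as independent, although 4 of the 5 control regions were at Sfrp1. This role is likewise only 1 of the roles compared, without a test. Chromosome 8, which holds Sfrp1, had 5.86 control regions per Mb. Its 2 members, Sfrp1 and Smad1, held 4 control regions against 0.816 at that density. Of the 4 antagonist genes, 2 had a region in the control and 1 in the knockdown. The length-weighted shares of all genes were 15.03% and 22.7%. The control list had more regions at 2 of these 4 genes, against a length-weighted 9.34% of all genes. Sfrp1, a decoy receptor for Wnt ligands, had 4 control regions with 10, 10, 11 and 17 tags and 1 knockdown region with 8 tags on chromosome 8. The strongest control region (23430978 to 23431308) had a −log10 p of 4.96, and the knockdown region (23442515 to 23442751) had a −log10 p of 2.01. The local input background was above the genome-wide 1.51 tags at all 4 control regions, at 1.68 to 2.31 tags, and equal to the genome-wide level at the knockdown region, and its part in the difference was not tested. The share of the knockdown among the 5 regions had an interval of 0.505 to 71.6%. Dkk1, which blocks LRP5 and LRP6, had 1 control region 3.96 kb downstream (30541500 to 30541915 on chromosome 19), with 18 tags, the highest pileup of the control regions at members, and a −log10 p of 5.08. The nearest knockdown region lay 25.2 kb away. Dkk2 and Sfrp2 had 0 regions in either list.

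Among the 8 Wnt effector genes, 5 had a region in the control and 4 in the knockdown, with 5 and 8 regions. For genes of these lengths, the weighted shares were 38.9% and 53.4%, so that the counts were near the background. Tcf7l2, a TCF factor that acts with beta-catenin, had 1 control region (55872410 to 55872605 on chromosome 19, 14 tags, −log10 p of 4.54). It had 3 knockdown regions of 15, 13 and 12 tags, of which the first (55827732 to 55827958) had a −log10 p of 5.11. Tcf7l1, a TCF that mostly represses, had 1 control region of 16 tags (72693149 to 72693321 on chromosome 6), whose −log10 p of 5.37 was the highest at a member in the control, and 2 knockdown regions of 10 and 14 tags. The closest regions of the 2 lists were 21.2 kb apart at Tcf7l2 and 7.24 kb apart at Tcf7l1. Lef1 had 2 knockdown regions of 12 and 9 tags and 0 in the control.

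Gsk3b, the kinase that marks beta-catenin for degradation, had 1 control region of 9 tags inside the gene, and its 1 knockdown region of 11 tags lay 5.89 kb downstream, inside the neighbouring gene Nr1i2. Tcf7 had 1 control region of 12 tags 4.03 kb upstream (52287415 to 52287579 on chromosome 11), and Axin2, a feedback inhibitor induced by Wnt signals, 1 of 12 tags 9.62 kb upstream in the lncRNA gene Gm46298. Both had 0 regions in the knockdown. Ctnnb1, which encodes beta-catenin, and Apc had 0 regions in either list.

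**Figure D3:**
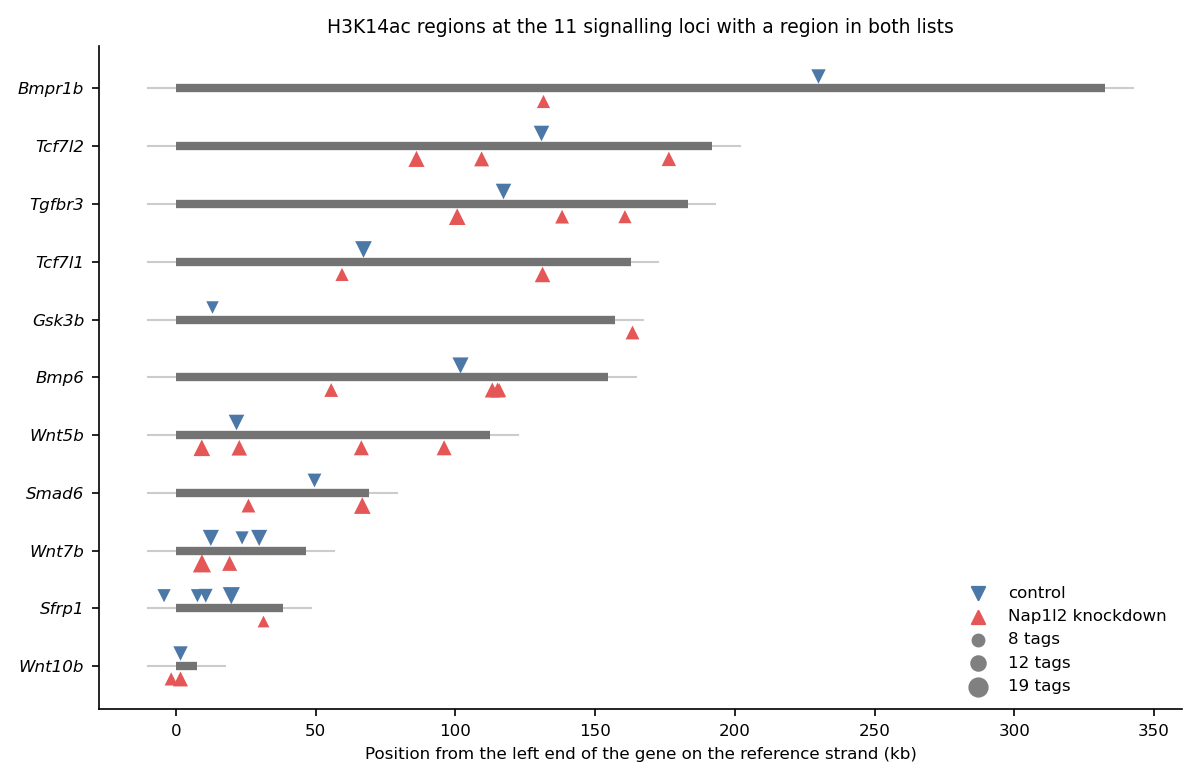
Positions of the H3K14ac regions (horizontal axis, kb from the left end of the gene on the reference strand) at the 11 members with a region in both lists. Thick bars are gene extents, thin lines the added 10 kb, blue and red triangles are control and knockdown regions, and the area of a triangle is proportional to the tags at the summit; only at Wnt10b do a blue and a red region overlap.

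Over the 11 members with regions in both lists, the closest control and knockdown regions were a median of 11.2 kb apart, and at most 150 kb apart, at Gsk3b. Of the 22 control regions, 16 lay inside the gene, and of the 40 knockdown regions, 36 did. The same share over all protein-coding loci was not counted, and longer genes leave less of the locus to the added 10 kb. Members of 100 kb and over held 7 of the control and 25 of the knockdown regions. Within 2 kb of either end of a gene lay 1 control region, at Wnt10b, and 3 knockdown regions, at Wnt10b and Gdf6. Exons and introns were not told apart.

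The regions at the members were of the same height as those elsewhere. Median pileups at the summit were 13 tags for control regions (range 9 to 18) and 12 tags for knockdown regions (range 8 to 19), which were the medians of the whole lists as well. The fold enrichment had medians of 3.28 and 3.17, also those of the whole lists, and the widest regions were 477 and 346 bp. None of the 22 control regions reached a −log10 q of 1.3, which is a q-value of 0.05 (interval up to 15.4%), and none of the 40 knockdown regions did (interval up to 8.81%). In the whole lists, 1.08% and 2.01% of regions reached it. The −log10 q was listed as 0 for 13 control regions (59.1%, against 70.2% of the whole list) and 26 knockdown regions (65.0%, against 67.1%). The very high summits of the lists, with up to 93 (control) and 65 tags (knockdown), were not at these genes. The local input background was above the genome-wide level at 12 of 22 control regions (54.5%, against 49.1% of the whole list) and at 9 of 40 knockdown regions (22.5%, against 32.3%).

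**Figure D4:**
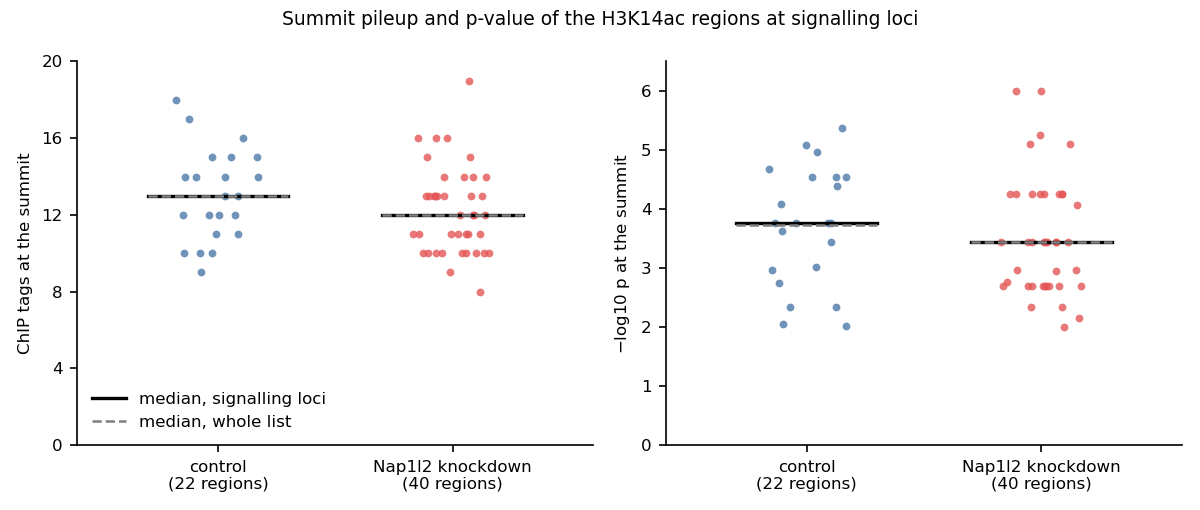
ChIP tags at the summit (left) and −log10 p at the summit (right) of each H3K14ac region at the 60 signalling loci, in the control (blue, 22 regions) and the Nap1l2 knockdown (red, 40 regions). Black lines are medians at the signalling loci and grey dashed lines medians of the whole lists, which lie together at 13 and 12 tags.

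The balance between the lists was then compared between the branches and the length classes. The 32 BMP and TGF-beta members had 7 control and 19 knockdown regions, a ratio of 2.71 (interval 1.09 to 7.64), and the 28 Wnt members had 15 and 21, a ratio of 1.40 (interval 0.688 to 2.92). The intervals overlap and both hold the 1.62 of all protein-coding loci. Sfrp1 weighed on the Wnt value, and without it the Wnt members had 11 control and 20 knockdown regions. The 16 members of 100 kb and over had 7 control and 25 knockdown regions, a ratio of 3.57 (interval 1.5 to 9.78), compared with 1.72 over all genes of that length. Per Mb, this was 2.62 control regions (interval 1.05 to 5.39, against 4.60) and 9.35 knockdown regions (interval 6.05 to 13.8, against 7.91). With lists of equal length the counts were 7 and 13, and among summits of 12 tags and more 6 and 12. All genes of that length were not counted in these settings, so the members cannot be set against them there. The 20 members of 30 to 100 kb had 12 control and 8 knockdown regions, of which Sfrp1 and Wnt7b held 7 of the control regions.

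The 32 members with 0 regions in both lists were shorter, with a median of 25.0 kb against 70.7 kb for the 28 with a region. The longest of them were Bmp5 (125 kb), Lrp6 (120 kb), Bmpr2 (114 kb), Apc (102 kb) and Dkk2 (95 kb). The nearest region lay 1065 kb from Bmp5, 213 kb from Lrp6, 1530 kb from Bmpr2, 90.5 kb from Apc and 445 kb from Dkk2 in the control. In the knockdown, it lay 66.9, 133, 505, 55.4 and 240 kb away, respectively. Of the 32 members, with a longer knockdown list, 22 had the knockdown region closer and 10 the control region, the latter including Wnt11 (11.3 against 158 kb) and Bmpr1a (18.9 against 42.4 kb). The same split was not counted over all genes without a region, so it does not set these members apart. At the limit of 10 kb, the farthest region that counted was that of Axin2 at 9.62 kb in the control. Among members with 0 regions in a list, the nearest region lay 11.3 kb from Wnt11 in the control and 15.5 kb from Smad2 in the knockdown. Uncounted regions beside members with a region were not measured.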

How the data were processed

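H3K14ac ChIP and input DNA of control and knockdown cells were sequenced on a HiSeq X after sonication and transposase library construction, with 4 samples in all. Per the submitters' processing notes, BWA 0.7.13, Picard 1.126, MACS2 2.1.0 and build mm10 (GRCm38) were used. The names of the 2 deposited lists state single-end tags made from pairs, removal of duplicates, calling of each ChIP against its own input with a p-value limit of 0.01, and a filter that is not described.

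The deposited columns hold the fold enrichment, which is a ratio of ChIP to input at each summit, its −log10 p and −log10 q, and a score that is 10 times the −log10 p without decimals. Starts were changed to count from 1. No entries of a list overlapped.

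Tags at the summit and the local background were computed from fold and −log10 p by the MACS2 equations, with a whole number of tags and 1 scale per list. All entries (100%) were solved, and the solver was tested on simulated data. The ChIP scale, by which tags are multiplied before they are set against the input, was 0.602 in the control and 0.565 in the knockdown.

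Gene extents came from RefSeq on GRCm38.p6. Overlap counts used python 3.11.15, pandas 2.3.3 and scipy 1.17.1, with Clopper-Pearson intervals for shares and ratios and exact Poisson intervals for counts. Length classes were divided at 10, 30 and 100 kb. The 20 members without a listed start were left out of start distances. Named genes were all members, with full values for those with regions in both lists, near a gene end, or with the most regions or the highest −log10 p. Members, lists and rules were chosen with earlier results of these data known. Region sequences were not analysed here, as no genome sequence was used.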

Additional observations from a re-analysis of the deposited data

How the results depend on the processing

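No paired analysis was possible because a single ChIP library stands for either condition, which also leaves no replicate to drop. With 6 alternatives for 5 results, 21 of 30 values stayed within 1.5 times the value reported. Counting the gene extent alone, counting by summit and leaving out chromosome 15 were all among these. Some of the 21 had little or no room to move. The control list was kept whole where lists had equal length, and the regions are narrow beside the loci in the count by summit. With a −log10 p of at least 4, 8 members had a region in the control, 10 in the knockdown and 4 in both, with 9 and 14 regions, since fewer entries pass, against 6.96% and 10.9% of all genes in the control and knockdown. With lists of equal length, the knockdown had 14 members and 21 regions, and so fewer than the control with 17 and 22, where entries with tied p-values were kept in file order. With at least 12 tags, 7 members had a region in both lists and the knockdown had 22 regions. Members of 100 kb and over were a comparison added after the data were seen. There the knockdown list had more regions than the control list in all 6 alternatives. For a −log10 p of at least 4, the counts were 4 in the control and 8 in the knockdown. The whole knockdown list was the longer one in every alternative but that of equal length. All genes of that length were not counted in these alternatives, so the direction alone does not set the members apart. With 1 library per group and summits of 8 to 19 tags, the lists cannot show that a gene lacks H3K14ac, nor that a single locus differs between the cells.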

Other observations

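A wider list of 97 other genes of the same pathways was counted in the same way. A region was found at 26 of them in the control (26.8%, interval 18.3 to 36.8%) and at 32 in the knockdown (33.0%, interval 23.8 to 43.3%), compared with 17.4% and 25.4% of all genes weighted by length class. The weighted share lay just below the interval in the control and within it in the knockdown. Neither list had a region at 49.5% of these genes, against a weighted 66.6%. No test was made, and chromosome 15 was not left out here. The wider list held 35 control and 49 knockdown regions, a ratio of 1.40 (interval 0.889 to 2.23). Per length of locus this was 5.74 control regions per Mb (interval 4.0 to 7.99, against 4.46 over all protein-coding loci) and 8.04 knockdown regions (interval 5.95 to 10.6, against 7.24).

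Both lists had a region at 9 of these genes (9.28%, against 9.40% after weighting by length class). They were the Nodal antagonist gene Lefty2 (1 control and 1 knockdown region), the BMP target Id3 (1 and 2), the latent TGF-beta binding protein gene Ltbp1 (2 and 4), the Wnt receptor genes Ror1 (1 and 4) and Ror2 (3 and 1), the R-spondin receptor gene Lgr5 (1 and 1), the ligand genes Wnt8a (1 and 1) and Wnt9b (1 and 1), and Nkd1, an inhibitor induced by Wnt signals (3 and 5). Only Nkd1 had regions that overlapped between the lists.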
